A study of Homo sapiens with 36 samples.

Results

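Of 26807 distinct TET1 binding intervals called on chromosomes 1 to 22 in HEK293T cells given control siRNA (siNC), 1081 (4.03%, exact Clopper-Pearson 95% interval 3.80 to 4.27) were wide or carried several summits. They were selected on their width and number of summits in the siNC list: an interval entered if it spanned 500 bp or more, or if the deposited list gave it on 2 or more lines, 1 for each summit. The set held 727 wide intervals with 1 summit, 277 wide intervals with several summits and 77 intervals under 500 bp with several summits. The remaining 25726 intervals, narrower and with 1 summit, are the set they are compared with. Width, number of summits, fold enrichment, position and neighbours in siNC come from the list that chose these intervals and are given as descriptions. The knockdown lists did not enter the choice.

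HEK293T, a line of human embryonic kidney origin that carries the SV40 large T antigen, was used for TET1 ChIP-seq. The cells had been transfected with siCHD5, siCHD3, siCHD4, siMBD2 or siMBD3, siRNAs named for single subunits of the NuRD complex, or with siNC, taken as the control. Each siRNA had 3 replicates of the pull-down and 3 of input chromatin, 36 libraries in all, and 1 peak list whose name joins replicates 1 to 3. The lists were therefore taken as called on pooled replicates, so no spread between replicates could be computed and no difference below was tested. Ranges after a share are exact 95% intervals and cover counting error only, and neighbouring sites of a list are not independent. Levels of the targeted proteins, the hours between transfection and harvest, and read totals per library were not analysed here.

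TET1 is a dioxygenase that oxidises 5-methylcytosine to 5-hydroxymethylcytosine and further products, a route to loss of DNA methylation. It carries a CXXC zinc finger that binds CpG-rich DNA, and it is found at many CpG-rich promoters and enhancers. NuRD joins nucleosome remodelling, by the ATPases CHD3, CHD4 or CHD5, to histone deacetylation. MBD2, which binds methylated CpGs, and MBD3, which largely lacks that binding, are alternative subunits of the complex. A peak caller reports as a summit the position of highest pull-down coverage, and gives an interval several summits where coverage has several separate maxima. Per the labels, fragments of 200 to 500 bp were selected for the libraries, a range that holds most of the summit distances below.

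The lists differed greatly in length. On chromosomes 1 to 22, siCHD5 held 30780 intervals, siCHD3 held 65, siCHD4 held 53, siMBD2 held 253 and siMBD3 held 159, against 26807 in siNC. The same rule was applied to each list. Wide or multi-summit intervals made up 4.61% of siCHD5 (1418), 27.7% of siCHD3 (18), 28.3% of siCHD4 (15), 25.7% of siMBD2 (65) and 27.7% of siMBD3 (44), against 4.03% of siNC. Those with several summits numbered 17 in siCHD3, 15 in siCHD4, 37 in siMBD2 and 37 in siMBD3. Those of 500 bp or more numbered 6, 7, 56 and 36. Control background was recovered from the deposited fold and p-value. Its median over every summit of a list, other chromosomes included, was 4.10 reads in siCHD5, 392 in siCHD3, 451 in siCHD4, 2.33 in siMBD2 and 3.78 in siMBD3, against 3.70 in siNC. Summits on chromosomes 1 to 22 were 84 of 140 in siCHD3 and 72 of 110 in siCHD4, against 27171 of 28450 in siNC. An annotation or sequence of hg19, the build of the files, was not used here. Intervals are named by hg19 position counted from 1, and the genes at them and their base composition were not analysed.

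The wide or multi-summit intervals ranged in width between 232 and 1342 bp, with a median of 565 bp (quartiles 521 and 661), against a median of 295 bp in the narrower intervals. By width, 587 measured 500 to 599 bp, 313 measured 600 to 799 bp, 82 measured 800 to 999 bp and 22 measured 1000 bp or more. By summits, 727 had 1, 345 had 2, 8 had 3 and 1 had 4. They covered 657 kb, 7.76% of the length covered by all siNC intervals on these chromosomes. The threshold cut a continuous distribution: 101 intervals with 1 summit measured 500 to 509 bp, just inside it, and 89 measured 490 to 499 bp, just outside. Median siNC fold was 9.89 just inside and 9.00 just outside, and siCHD5 overlapped 89.1% of the intervals inside and 95.5% of those outside.

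Enrichment varied between the 3 classes. Fold enrichment is the authors' value for a summit in its own list, and the highest summit of an interval is used here. Median siNC fold was 8.16 over the wide or multi-summit intervals (quartiles 5.00 and 11.5) and 6.75 over the narrower ones (quartiles 5.04 and 8.96). Wide intervals with 1 summit had a median fold of 8.99, wide intervals with several summits 7.38, and multi-summit intervals under 500 bp 3.90. The wide or multi-summit intervals were spread unevenly over the siNC fold distribution. They made up 4.07% of the lowest quartile of siNC intervals by fold, 1.93% of the second, 3.31% of the third and 6.83% of the highest. They supplied 4 of the 10 intervals of highest fold, 23 of the first 100 and 135 of the first 1000.

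**Figure D1:**
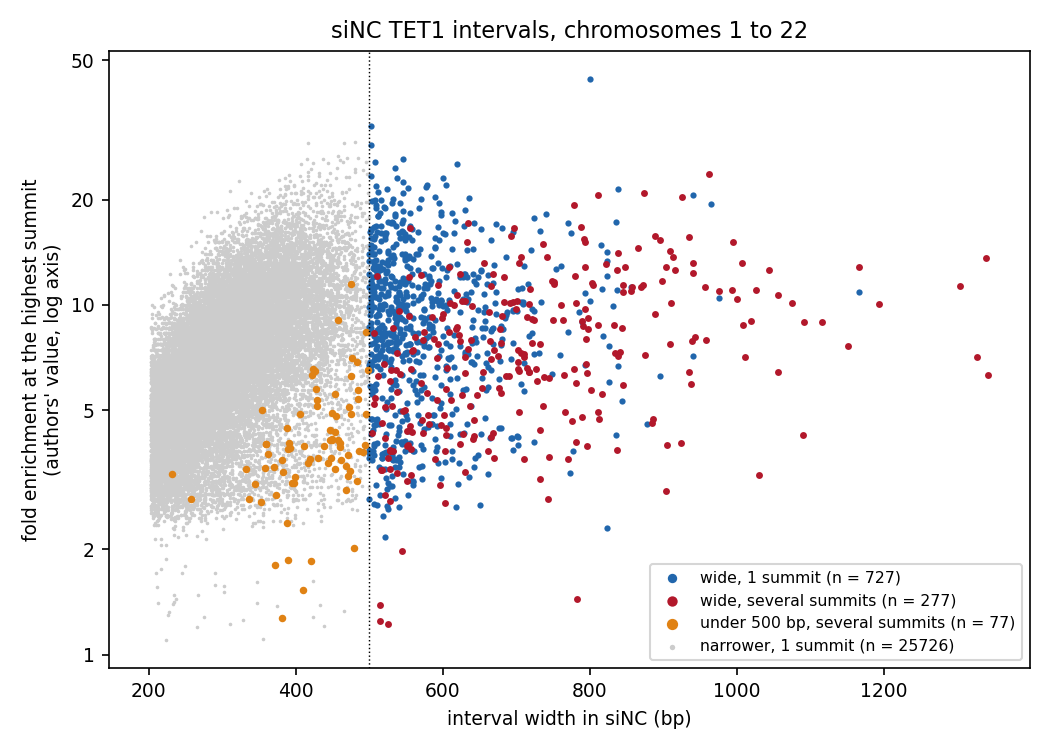
Width (bp) of each siNC interval on chromosomes 1 to 22 against the fold enrichment of its highest summit (authors' value, log axis), coloured by class, with a dotted line at 500 bp. Wide intervals with 1 summit reach 44.3-fold and have a median of 8.99, and multi-summit intervals under 500 bp have a median of 3.90.

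Many wide intervals with 1 summit were lopsided. Their summit lay a median of 205 bp from the nearer end and 364 bp from the farther end, and in 41.4% of them the farther end was at least 2 times as distant as the nearer one. In the narrower intervals these medians were 126 and 167 bp, and the share was 8.22%.

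The interval of highest siNC fold was itself wide. It lay on chromosome 17 at 43212531 to 43213330, an 800 bp interval with 1 summit and 44.3-fold enrichment, which rested on 154 pull-down reads over a control background of 2.50 reads. That background is the lowest value in the siNC list and recurs at other intervals. The siCHD5 interval at this site measured 633 bp and had 29.1-fold enrichment in its own list. siCHD4 and siMBD2 had narrow intervals of 195 and 232 bp inside it, with 4.84-fold and 5.09-fold enrichment in their lists. Next by siNC fold among the wide or multi-summit intervals came those on chromosome 17 at 41837676 to 41838177 (502 bp, 32.5-fold), chromosome 17 at 17259320 to 17259822 (503 bp, 28.7-fold) and chromosome 5 at 133375131 to 133375676 (546 bp, 26.1-fold). siCHD5 overlapped all 10 wide or multi-summit intervals of highest siNC fold, which spanned 502 to 963 bp, and its interval was wide or multi-summit at 5 of them. In the highest quartile of siNC fold it overlapped 99.8% of wide or multi-summit intervals and 99.4% of narrower ones. Its interval was wide or multi-summit at 43.4% and 4.02% of these. Over all siNC intervals the 2 shares were 85.4% overlapped and 4.44% wide or multi-summit in siCHD5. On chromosome 14 at 50328694 to 50329228, a 535 bp siNC interval with 1 summit and 24.7-fold enrichment lay in a 1330 bp siCHD5 interval with 2 summits.

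The widest intervals mostly had several summits. Of the 10 widest, which measured 1092 to 1342 bp, 9 had several summits, siCHD5 overlapped all 10, and its interval was wide or multi-summit at 8. Over all wide or multi-summit intervals siCHD5 overlapped 89.2%, and its interval had that form at 39.2%. Over all siNC intervals these shares were 85.4% and 4.44%. The widest lay on chromosome 14 at 74416674 to 74418015, with 2 summits 732 bp apart of 4.29-fold and 6.29-fold. The siCHD5 interval there covered the right-hand side alone, 649 bp at 74417296 to 74417944. The next, on chromosome 17 at 39845140 to 39846478, had summits of 3.60-fold and 13.6-fold 984 bp apart, the greatest distance between neighbouring siNC summits. There siCHD5 had 2 separate intervals in place of 1, the wider of 487 bp. Other wide intervals were nearly the same in both lists: on chromosome 17 at 19044834 to 19046137 the interval measured 1285 bp in siCHD5 and 1304 bp in siNC, and on chromosome 12 at 7052903 to 7054096 it measured 1232 bp in siCHD5 and 1194 bp in siNC. The widest interval with 1 summit, on chromosome 10 at 102757435 to 102758601, measured 622 bp in siCHD5 and 1167 bp in siNC.

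The interval with 4 summits lay on chromosome 1 at 45196161 to 45197276. Its summits had 4.68-fold, 3.20-fold, 3.13-fold and 8.93-fold enrichment and lay 169, 501 and 846 bp along from the first. siCHD5 had a 1022 bp interval with 3 summits there. Among the 8 intervals with 3 summits, that on chromosome 19 at 13075763 to 13076719 had its highest summit, of 11.3-fold, first, with summits of 3.83-fold and 2.98-fold 469 and 604 bp along. On chromosome 17 at 19092951 to 19093654 the summits had 6.47-fold, 5.61-fold and 4.34-fold enrichment, over 389 bp. siCHD5 also had 3 summits there, in a 1009 bp interval.

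Most neighbouring summits lay 200 to 399 bp apart. The 354 multi-summit siNC intervals gave 364 pairs of neighbouring summits with a median distance of 316.5 bp (95% interval of the median 301 to 344), quartiles of 241 and 427 bp and a range of 74 to 984 bp. Of these pairs, 214 (58.8%) fell between 200 and 399 bp. The same measure over all 493 multi-summit siCHD5 intervals gave 525 pairs with a median of 328 bp (313 to 345). Multi-summit siNC intervals under 500 bp can hold only close summits, and their median distance was 227 bp, against 363 bp in those of 500 bp or more. The fold of the second-highest summit had a median of 0.731 of the highest (quartiles 0.551 and 0.872). It reached at least 0.8 of the highest in 143 of the 354 intervals and stayed below 0.5 in 63. The highest summit was the leftmost in 156 of them.

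**Figure D2:**
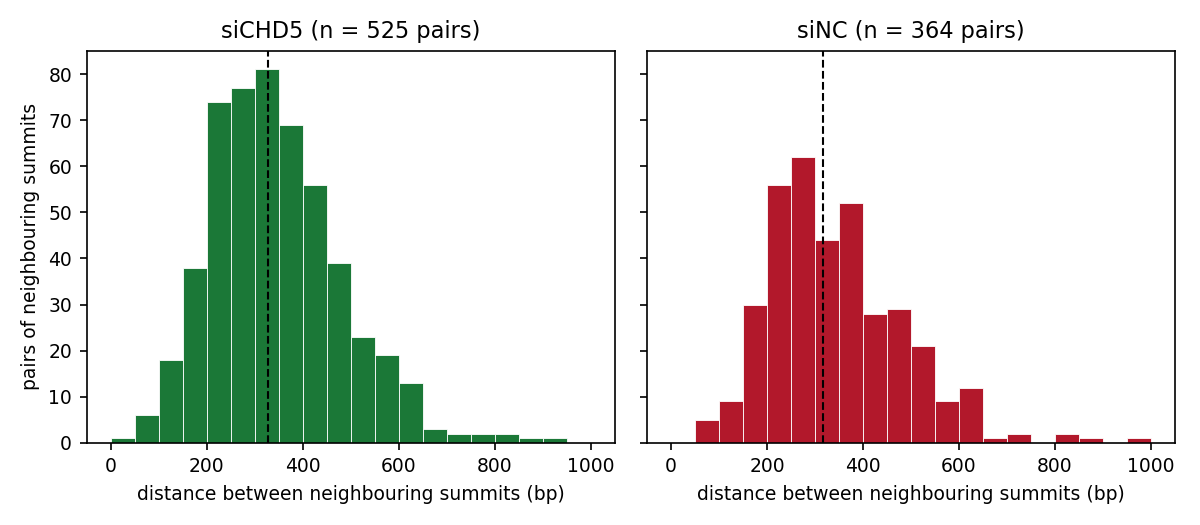
Number of pairs of neighbouring summits by distance (bp, bins of 50 bp) in the multi-summit intervals of siCHD5 (left) and siNC (right), with the median dashed. Distances of 200 to 399 bp make up 57.3% of siCHD5 pairs and 58.8% of siNC pairs, and the medians are 328 bp in siCHD5 and 316.5 bp in siNC.

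siCHD5 overlapped most of the wide or multi-summit intervals. By at least 1 shared bp it overlapped 964 of 1081 (89.2%, 95% interval 87.2 to 90.97), against 21926 of 25726 narrower intervals (85.2%, 84.8 to 85.7) and 85.4% of all siNC intervals. By class, 650 of 727 wide intervals with 1 summit were overlapped (89.4%), 260 of 277 wide intervals with several summits (93.9%, 90.4 to 96.4) and 54 of 77 multi-summit intervals under 500 bp (70.1%, 58.6 to 80.0). The 1 bp rule depends on the width of an interval, and median siNC fold also differed between the sets. A further rule asked for a siCHD5 summit within 100 bp of the highest siNC summit, among siCHD5 intervals sharing at least 1 bp. It still rests on the 1 bp overlap, and it follows 1 siNC summit per interval. A siCHD5 summit near another siNC summit alone does not count. By this rule the shares of the whole sets were close and in the other order, but not in each class. A siCHD5 summit lay within 100 bp of the highest siNC summit in 904 of the wide or multi-summit intervals (83.6%, 81.3 to 85.8), in 84.4% of the narrower intervals and in 84.4% of all siNC intervals. By class, this share was 87.1% (84.4 to 89.4) of wide intervals with 1 summit and 84.1% (79.3 to 88.2) of wide intervals with several summits. It was 49.4% (37.8 to 61.0) of multi-summit intervals under 500 bp.

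Within quartiles of siNC fold, the 1 bp overlap with siCHD5 was 63.0% of wide or multi-summit intervals against 58.9% of narrower ones in the lowest quartile (fold under 5.04), and 93.8% against 87.3% in the second. In the third it was 96.8% against 95.7%, and in the highest (fold over 9.07) it was 99.8% against 99.4%. By a siCHD5 summit within 100 bp, the lowest quartile gave 45.8% (39.8 to 51.9) of wide or multi-summit intervals against 55.6% (54.4 to 56.8) of narrower ones. In the other quartiles the share of narrower intervals lay within the exact interval of the wide or multi-summit set: 88.5% against 87.3%, 95% against 95.6% and 99.3% against 99.4%. Of 458 wide or multi-summit intervals in the highest quartile, 1 had no siCHD5 overlap.

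**Figure D3:**
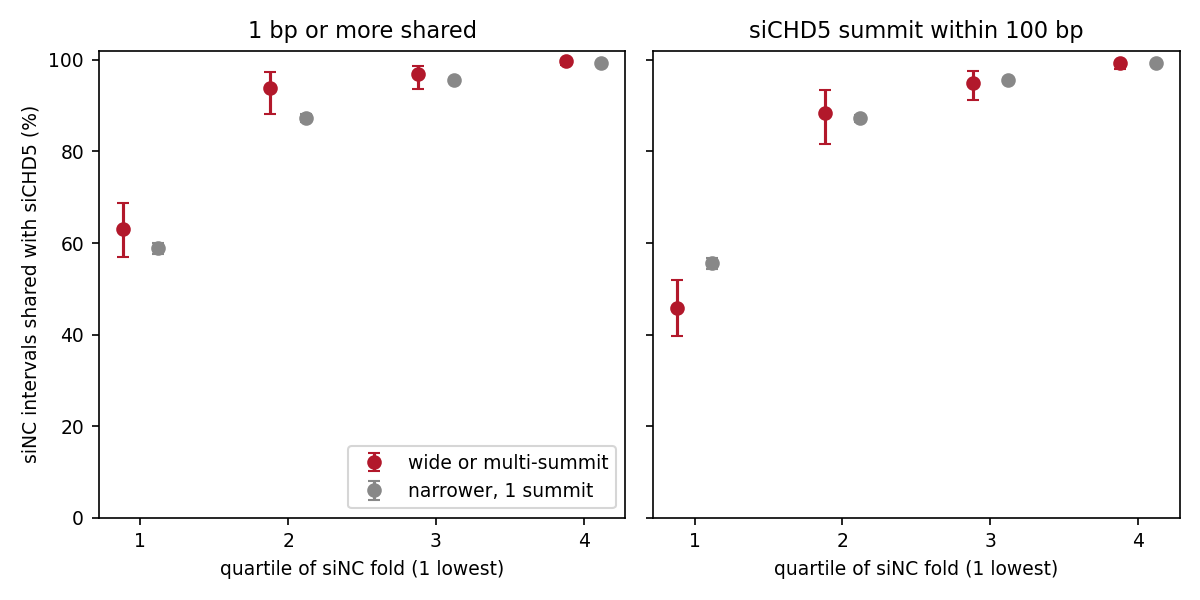
Share (%) of siNC intervals matched in siCHD5 by quartile of siNC fold, for wide or multi-summit intervals (red) and narrower intervals with 1 summit (grey), by 1 shared bp (left) and by a siCHD5 summit within 100 bp of the highest siNC summit (right), with exact 95% intervals. In the lowest quartile the red point is higher by shared bp, 63.0% against 58.9%, and lower by summit distance, 45.8% against 55.6%.

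The 117 wide or multi-summit intervals without a siCHD5 overlap were weakly enriched. Their median siNC fold was 3.96, their highest 9.15, and their median pull-down pileup 17 reads, against a median fold of 8.73 and a pileup of 43 reads in the 964 overlapped. Narrower intervals showed the same: 4.17-fold and 18 reads in the 3800 without siCHD5, against 7.22-fold and 36 reads in the 21926 overlapped. The strongest of the 117 lay on chromosome 12 at 7829968 to 7830652 (685 bp, 9.15-fold), chromosome 15 at 54255161 to 54255680 (520 bp, 8.58-fold), chromosome 16 at 81008455 to 81008957 (503 bp, 7.72-fold), chromosome 1 at 32230719 to 32231245 (527 bp, 7.44-fold) and chromosome 17 at 44501614 to 44502337 (724 bp, 7.25-fold). Of the 10 of highest fold, 8 had 1 summit. None of these 10 had an interval in any of the other 4 knockdown lists. Those lists touched few intervals anywhere, 1.94% of wide or multi-summit intervals and 0.265% of all siNC intervals.

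Most of the overlapped intervals had a siCHD5 summit close to their highest siNC summit. In the 964 overlapped intervals, the nearest siCHD5 summit lay a median of 11 bp from the highest siNC summit, and within 50 bp in 854 of them (88.6%). In narrower intervals the median was 10 bp and the share 96.9%. Multi-summit intervals under 500 bp held position least, with a median of 40.5 bp and 29 of 54 within 50 bp. Of the 314 second-highest siNC summits in overlapped multi-summit intervals, 157 (50.0%, 44.3 to 55.7) had a siCHD5 summit within 50 bp. Where siCHD5 had several summits over the siNC interval, in 1 or more intervals, the count was 143 of 176, and where it had 1 it was 14 of 138.

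Where both lists gave 2 summits, the pair of summits was nearly the same pair. There were 157 such intervals, counting every siCHD5 summit over the siNC interval. Median distance between the 2 summits was 404 bp in siCHD5 and 392 bp in siNC, and across these intervals the distances had a Pearson correlation of 0.84 and a Spearman correlation of 0.83. Both summits lay within 50 bp of their siNC positions in 129 of them (82.2%), and within 100 bp in 143. The intervals are not replicates, and the correlation is a description.

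Widths in siCHD5 were mostly smaller than in siNC. The widest siCHD5 interval over each of the 964 measured a median of 461 bp, against 571 bp for the same sites in siNC, a median difference of −105.5 bp (95% interval of the median −118 to −92). It was wider in siCHD5 at 251 sites, narrower at 711 and equal at 2. Wide intervals with 1 summit changed most, with 427 bp in siCHD5 and 553.5 bp in siNC. Wide intervals with several summits measured 646.5 bp in siCHD5 and 706 bp in siNC. Narrower intervals measured 313 bp in siCHD5 and 303 bp in siNC.

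These intervals were chosen for their siNC width, so some loss of width in any other list is set by the choice. The same rule was therefore applied to siCHD5 and read in siNC. The 1418 wide or multi-summit siCHD5 intervals were overlapped by siNC in 1168 cases (82.4%). Those 1168 measured a median of 584 bp in siCHD5 and 410 bp in siNC, a median difference of −171 bp in the direction siNC minus siCHD5. The list that did not choose the intervals was thus the narrower one in both directions, and the difference was larger when siCHD5 chose them.

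**Figure D4:**
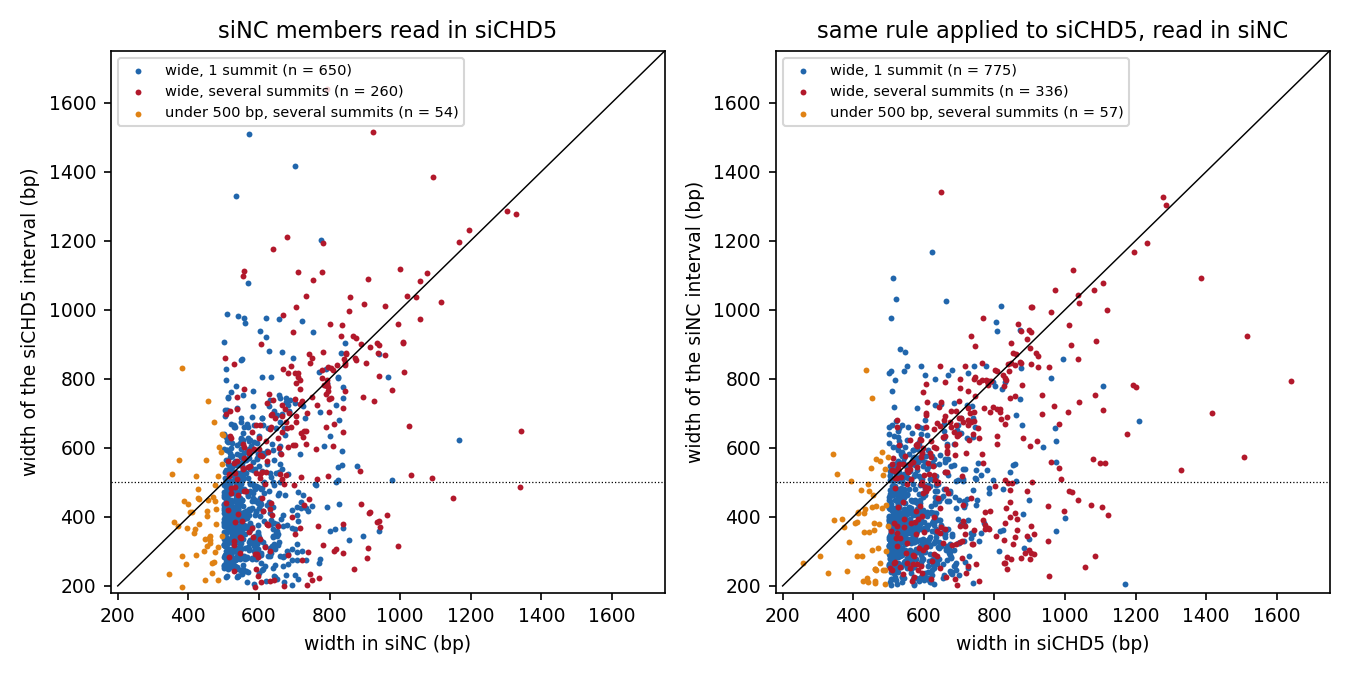
Left, width in siCHD5 against width in siNC (bp) for the 964 wide or multi-summit siNC intervals that siCHD5 overlapped. Right, width in siNC against width in siCHD5 for the 1168 such siCHD5 intervals that siNC overlapped. The solid line marks equal width and the dotted line 500 bp. In both panels most points lie below the line of equal width, 711 of 964 on the left and 984 of 1168 on the right.

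A wide or multi-summit form was kept in siCHD5 at 424 of the 1081 intervals (39.2%, 36.3 to 42.2). The same form appeared over 767 of the narrower intervals (2.98%, 2.78 to 3.20) and over 4.44% of all siNC intervals. Counted over the 964 overlapped sites, the share was 44.0%. Wide intervals with several summits kept the form most often, 187 of 277 (67.5%, 61.6 to 73.0), against 217 of 727 wide intervals with 1 summit (29.8%, 26.5 to 33.3) and 20 of 77 multi-summit intervals under 500 bp (26.0%, 16.6 to 37.2). The share went up with siNC width: 28.3% at 500 to 599 bp, 50.8% at 600 to 799 bp, 72.0% at 800 to 999 bp and 20 of 22 at 1000 bp or more. It varied less with fold, between 29.3% in the lowest quartile and 43.4% in the highest, with intervals lacking a siCHD5 overlap counted. Over the overlapped intervals alone it did not go up with fold. It was 80 of 172 in the lowest quartile, 51 of 122 in the second, 94 of 213 in the third and 199 of 457 in the highest.

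Summit number was kept in part. Of 305 overlapped siNC intervals with 2 summits, the siCHD5 interval had 1 summit at 153, 2 at 141 and 3 at 11. Of 650 overlapped wide intervals with 1 siNC summit, siCHD5 had 1 summit at 581, 2 at 65 and 3 at 4. At 19 of the 964 sites siCHD5 had 2 or more separate intervals in place of 1.

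The 4 shorter knockdown lists touched few of these intervals. siCHD3 overlapped 9 of 1081 (0.833%, against 0.127% of all siNC intervals), siCHD4 overlapped 10 (0.925%, against 0.123%), siMBD2 overlapped 19 (1.76%, against 0.201%) and siMBD3 overlapped 10 (0.925%, against 0.131%). In the narrower intervals the numbers were 25, 23, 35 and 25 of 25726. By a knockdown summit within 100 bp of the highest siNC summit, the siCHD3 list matched 7 wide or multi-summit intervals (0.648%, against 0.119% of all siNC intervals) and siCHD4 matched 9 (0.833%, against 0.116%). By that rule siMBD2 matched 13 (1.20%, against 0.149%) and siMBD3 matched 8 (0.740%, against 0.104%). Any of the 4 lists touched 21 wide or multi-summit intervals (1.94%, against 0.265% of all siNC intervals), and 8 lay in all 4 (0.740%, against 0.0783%). No knockdown list touched 116 (10.7%, against 14.6% of all siNC intervals).

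The control background of these shared sites varied widely. Of the 21 intervals, 9 had a recovered siNC control background of 274 to 3352.5 reads, all 9 had several summits, and their median siNC fold was 1.44. The other 12 had a background of at most 11.6 reads, 11 of them had 1 summit, and their median siNC fold was 11.6. Background over 20 reads, a limit set after the values were seen, occurred in 12 wide or multi-summit intervals (1.11%, 0.575 to 1.93) and in 47 narrower ones (0.183%, 0.134 to 0.243). Among intervals of 20 reads or less, siCHD3 overlapped 0 of 1069 wide or multi-summit intervals, siCHD4 overlapped 2, siMBD2 overlapped 10 and siMBD3 overlapped 2, against 4, 1, 14 and 6 of 25679 narrower ones. For the 0 of 1069, the upper bound of the exact interval is 0.344%, and 3 counts, the limit that a count of 0 allows, would be 0.281%. The part of control background in the overlap was not tested.

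The 8 intervals in all 5 knockdown lists each had a background over 20 reads and low fold in every list. That on chromosome 19 at 27731953 to 27732324 measured 372 bp with 2 summits and rested on 6057 pull-down reads over a control background of 3352.5 reads, 1.81-fold in siNC. At that site the interval measured 373 bp in siCHD5, 366 bp in siCHD3, 369 bp in siCHD4, 370 bp in siMBD2 and 369 bp in siMBD3, with 2 summits in each and 2.01-fold, 2.08-fold, 2.01-fold, 2.03-fold and 2.06-fold enrichment in the lists' own values. On chromosome 2 at 92312610 to 92313392, a 783 bp siNC interval with 2 summits and 1.44-fold enrichment had 3 summits in siCHD5, 3 in siCHD3, 4 in siCHD4, 3 in siMBD2 and 3 in siMBD3, over 765 to 825 bp. The other 6 lay on chromosome 2 at 92290620 and 92316216, chromosome 7 at 61969254, chromosome 11 at 51580174 and 51582635 and chromosome 18 at 18519082, with siNC folds of 1.25 to 2.02.

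Where background was low, the intervals of the shorter lists were narrower than the siNC ones at the median. These sites were chosen for their siNC width or summits, so some loss of width in any other list is set by the choice. The sites are few, and the reverse reading is not given for these lists. The 10 siMBD2 intervals at such sites measured a median of 227 bp in siMBD2, against 673.5 bp for the same sites in siNC, and none was wide or multi-summit. The 2 siCHD4 intervals measured a median of 192 bp in siCHD4, against 696.5 bp in siNC, and neither was wide or multi-summit. The 2 siMBD3 intervals measured a median of 313 bp in siMBD3, against 973 bp in siNC, and 1 of them was wide or multi-summit. Over the whole lists, at any background, 25.7% of siMBD2, 28.3% of siCHD4 and 27.7% of siMBD3 intervals were wide or multi-summit. On chromosome 1 at 16992647 to 16993973, a 1327 bp siNC interval with 3 summits and 7.10-fold enrichment, the interval measured 1277 bp in siCHD5, 203 bp in siMBD2 and 226 bp in siMBD3. The siMBD2 and siMBD3 intervals began within 4 bp of each other, at 16993443 in siMBD2 and 16993439 in siMBD3.

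Wide or multi-summit intervals had closer neighbours than narrower ones. The median gap, edge to edge, to the nearest other siNC interval was 13.1 kb (95% interval of the median 11.3 to 14.4) for wide or multi-summit intervals and 22.02 kb (21.5 to 22.5) for narrower ones. Another siNC interval lay within 1 kb of 89 of them (8.23%, 6.66 to 10.0), against 3.37% of narrower intervals, and within 10 kb of 477 (44.1%, 41.1 to 47.1), against 30.4%. The share within 10 kb was higher in wide or multi-summit intervals on 21 of 22 chromosomes, the exception being chromosome 10 with 31.3% against 31.8%. It was also higher in each quartile of siNC fold, 45.1% against 29.0% in the lowest and 43.4% against 34.7% in the highest.

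They also lay near each other. A further wide or multi-summit interval lay within 50 kb of 199 of them (18.4%, 16.1 to 20.9), against 2017 narrower intervals (7.84%, 7.51 to 8.18). The median gap to the nearest such interval was 379 kb for wide or multi-summit intervals and 837 kb for narrower ones. With neighbours within 50 kb joined, 199 of them fell in 79 runs of 2 or more, and 882 stood alone.

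**Figure D5:**
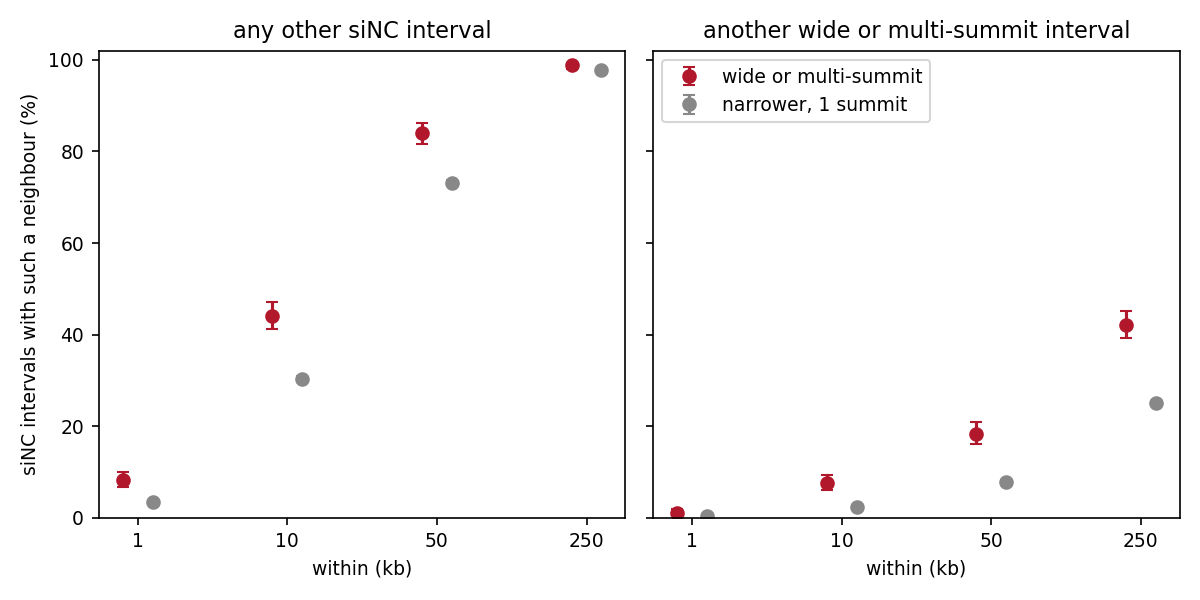
Share (%) of siNC intervals with any other siNC interval (left) or another wide or multi-summit interval (right) within 1, 10, 50 or 250 kb, for wide or multi-summit intervals (red) and narrower intervals with 1 summit (grey), with exact 95% intervals. The red point is the higher at each distance, 44.1% against 30.4% for any neighbour within 10 kb and 18.4% against 7.84% for a wide or multi-summit neighbour within 50 kb.

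The run with most of them lay on chromosome 17 at 18935048 to 19100121. It held 8 wide or multi-summit intervals among 16 siNC intervals over 165 kb, with widths of 535 to 1304 bp and siNC folds of 6.47 to 18.2. siCHD5 overlapped all 8 and kept 7 of them wide or multi-summit. None lay in any of the 4 shorter lists, which touched 1.94% of wide or multi-summit intervals and 0.265% of all siNC intervals. On chromosome 19 at 50607204 to 50637609, 5 intervals among 9 fell within 30.4 kb. All 5 had 1 summit and siNC folds of 15.3 to 20.1, and siCHD5 kept 4 of them wide or multi-summit. On chromosome 6 at 25992531 to 26056384, 5 intervals among 7 fell within 63.9 kb, with siNC folds of 4.05 to 7.16, and siCHD5 kept 3. Over all wide or multi-summit intervals siCHD5 overlapped 89.2% and kept 39.2% in that form. Over all siNC intervals it overlapped 85.4%, and its interval was wide or multi-summit at 4.44%.

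The share of wide or multi-summit intervals differed between chromosomes. It was highest on chromosome 17, 99 of 1482 (6.68%, 5.46 to 8.07), and high on chromosomes 22 (5.61%), 5 (5.40%) and 14 (5.29%). It was lowest on chromosome 3, 29 of 1523 (1.9%, 1.28 to 2.72), and low on chromosomes 20 (2.19%) and 21 (2.22%). Intervals of the same form in siCHD5 made up 8.67% on chromosome 17 and 2.15% on chromosome 3. Over the 22 chromosomes the siCHD5 share and the siNC share had a Spearman correlation of 0.81, as a description of lists that hold most of the same sites. The siNC share and the median siNC fold of a chromosome had one of 0.24.

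Shares near the ends of chromosomes were close to those of the narrower intervals. The peak-poor stretch of a chromosome, its longest gap between siNC intervals of fold 4 or more widened by 1 Mb on either side, held 21 (1.94%, 1.21 to 2.95), against 1.42% of narrower intervals. Of these 21, 9 had a control background over 20 reads, as did 34 of the 366 narrower intervals there. Within 5 Mb of the outermost siNC interval of a chromosome lay 91 (8.42%, 6.83 to 10.2), against 9.26% of narrower intervals, and within 1 Mb lay 23 (2.13%, 1.35 to 3.18), against 1.9% of narrower intervals. Multi-summit intervals under 500 bp were the class with the largest share in peak-poor stretches, 5 of 77 (6.49%, 2.14 to 14.5). All 5 had a control background over 20 reads.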

How the data were processed

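Per the submitters' processing notes, the tools were MACS2 2.1.2, deepTools 3.5.0, bedtools 2.25.0, Bowtie2 2.3.4, FastQC 0.11.7 and SAMtools 1.9, with build hg19, without their roles or settings. The 6 deposited peak lists give a score, a fold enrichment (ratio over local control), a −log10 p-value, a −log10 q-value and a summit offset in bp for each summit, as the authors' peak caller wrote them. Lines with the same chromosome, start and end were joined into 1 interval. Other chromosomes were left out, except in the median control background of each list and in the chromosome X counts.

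Python 3.11.15 with numpy 2.4.6, pandas 2.3.3, scipy 1.17.1 and matplotlib 3.10.9 was used. Overlap required 1 shared bp. The counterpart of an interval is the widest knockdown interval over it, and its summit number the highest among them. Shares carry exact Clopper-Pearson 95% intervals and medians order-statistic 95% intervals, for counting error only. Pull-down pileup and control background in reads were recovered from fold, with a pseudocount of 1 read, and the Poisson upper tail (tolerance 0.02 on −log10 p) at every summit of the 6 lists. Quartiles are of siNC fold over all 26807 intervals.

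Regions were named by a rule: the 10 widest, the 10 with most summits, the 10 of highest siNC fold, the 10 highest without siCHD5, those in 3 or more knockdown lists, the 3 densest runs and the 5 widest siCHD5 intervals without siNC, of which some are printed. The selection rule, this rule and the alternatives were written with earlier results of these data known. Procedures were tested on simulated data.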

Additional observations from a re-analysis of the deposited data

Results flagged for a closer look

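Chromosome X lies outside the rule that chose the intervals, and its values are given for that reason. There, 43 of 1294 siCHD5 intervals (3.32%, exact 95% interval 2.42 to 4.45) and 40 of 1154 siNC intervals (3.47%, 2.49 to 4.69) were wide or multi-summit.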

How the results depend on the processing

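No paired analysis was possible because each siRNA has 1 list, whose name joins its replicates, and for the same reason leaving out a replicate could not be run. Of 70 recomputed values, 36 stayed within the 95% interval of the reported value (counts within 1.5 times). The following did not. The number of intervals was 564 with a width minimum of 600 bp and 354 with several summits alone. The share overlapped by siCHD5 was 94.8% at −log10 q of 10 or more, 76.7% with at least 50% of the siNC interval covered, 87.0% with the highest siNC summit covered and 83.6% with summits within 100 bp. The share of narrower intervals was 91.7% at −log10 q of 10 or more, 84.6% with at least 50% covered, 84.4% with summits within 100 bp and 88.0% at fold 4 or more, so the order of the sets turned for 50% coverage and for summits within 100 bp. The overlaps with siCHD3, siMBD2 and siMBD3 were 1.60%, 2.84% and 1.77% at 600 bp. With several summits alone, siCHD3, siCHD4, siMBD2 and siMBD3 overlapped 2.54%, 2.26%, 2.82% and 2.54%. At fold 4 or more they overlapped 0%, 0.224%, 1.01% and 0.224%. Without control background over 20 reads, an alternative chosen after seeing the data, they overlapped 0%, 0.187%, 0.935% and 0.187%. siMBD2 overlapped 0.758% at −log10 q of 10 or more and 0.740% with at least 50% covered. The share kept wide or multi-summit in siCHD5 was 43.6% at 600 bp. At −log10 q of 10 or more, summits lay 398 bp apart at the median and the nearest siNC interval 18424.5 bp away. The share with a further such interval within 50 kb was 13.1% at 600 bp and 15.7% at −log10 q of 10 or more. It was 7.59% within 10 kb and 42.2% within 250 kb. The causes were not tested. Depth is known only as pileup at summits, with a median of 40 reads at the highest summit of these intervals.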

Other observations

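Of the siCHD5 intervals without a siNC interval, 250 of 7894 (3.17%, exact 95% interval 2.79 to 3.58) were wide or multi-summit, against 1168 of 22886 shared with siNC (5.10%, 4.82 to 5.40). The 5 widest of them each had 2 summits and folds of 3.17 to 6.17 in siCHD5. They lay on chromosome 10 at 60015735 to 60016656 (922 bp), chromosome 11 at 65272692 to 65273604 (913 bp), chromosome 1 at 193090867 to 193091712 (846 bp), chromosome 17 at 39941085 to 39941922 (838 bp) and chromosome 17 at 16438606 to 16439442 (837 bp).

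The 12 wide or multi-summit siNC intervals of high control background held 10 multi-summit intervals, whose neighbouring summits lay a median of 227.5 bp apart (196 to 278 bp), against 321.5 bp in the 344 multi-summit intervals of lower background. The distances in those 344 ranged between 74 and 984 bp. Width differed too: 6 of the 10 of high background measured under 500 bp, a class with a median distance of 227 bp over all of siNC. The parts of width and background were not tested.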
